A study of Mus musculus with 9 samples.

Results

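The comparison of day 21 with day 3 after a complete cut of the mouse spinal cord at T9 (the ninth thoracic level) rests on 6 of the 9 libraries of the study: 3 from day 21 and 3 from day 3, chosen by their column labels in the deposited count table. The other 3 libraries, from day 0, were the reference against which an early change could be seen to have been reversed, kept or extended. All libraries were made from poly-A RNA of spinal cord. The labels give no strain, sex, age, sham operation, drug or length of cord sampled, and they do not say whether the replicates of a day came from separate animals, so that the p-values below measure the spread between these libraries, which may be technical.

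A cut through the cord kills neurons and glia at the site, opens vessels, and brings in neutrophils and then monocytes that become macrophages. Resident microglia, astrocytes, vascular cells and fibroblasts divide in the first days. A scar of astrocytes around a fibrotic core then forms, while phagocytes go on taking up myelin debris for weeks. Axons below the cut lose their input from the brain for good, and neurons of the cord that were not cut adjust to that loss.

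Total gene counts were 14916863 to 17930431 a library at day 3 and 14299679 to 15756253 at day 21. The 3 day 3 libraries were close to each other (Pearson correlation across genes of log2 CPM, counts scaled to the library total, 0.987 to 0.988). Day 21 replicates 1 and 3 were as close (0.987), whereas day 21 replicate 2 stood apart from them (0.943 and 0.935). Its departure followed gene length: sorted by length into 5 groups of 3215 genes, the shortest group (median 1663 bases) was higher in replicate 2 than in replicates 1 and 3 by a median of 0.53 on the log2 scale, and the longest group (median 13072 bases) was lower, at -0.57. Each log2 fold change below was therefore fitted with all 9 libraries (edgeR quasi-likelihood test, Benjamini-Hochberg adjusted p). It was fitted again without day 21 replicate 2, named here the 8-library refit. Where only 1 value is given, it is that of the 9 libraries. None of the 84 called genes named in the text lost its call in the refit. In the reference group, day 0 replicate 1 also differed from replicates 2 and 3, though less. For genes with 2000 counts or more, its median absolute log2 ratios to them were 0.155 and 0.148. Between replicates 2 and 3 of day 0 the value was 0.0462. Day 0 replicate 1 is part of both fits. The markers of cord cells were present in every library: 5 neuron markers summed to 618 to 1482 FPKM, 5 oligodendrocyte markers to 1407 to 1679.8 and 5 astrocyte markers to 869 to 2426. Levels are in FPKM (counts scaled to gene length and to the library total), in the order of replicates 1, 2 and 3. RNA was taken from whole tissue, so that fewer cells of a type and less RNA per cell cannot be told apart.

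Of 16494 genes tested, 1928 (11.7%) were higher and 2657 (16.1%) lower at day 21 than at day 3 at an adjusted p under 0.05 by edgeR. The median log2 fold change over all of them was 0.016. By FPKM, every day 21 library lay above every day 3 library in 22.9% of them and below in 21.6%. The 8-library refit called 3941 genes higher (23.5% of 16739) and 4305 lower (25.7%), and 1877 of the higher and 2636 of the lower genes were called in both. Leaving out any 1 of the 3 day 3 libraries instead lowered the count of higher genes to 1006, 1066 and 1038. Scaling the libraries by their upper quartile moved the median of all genes to 0.118 and turned the balance of calls, with 2622 higher and 2209 lower, so the excess of falls over rises depends on the scaling. Against day 0, 4090 genes (24.8%) were higher and 3217 (19.5%) lower at day 3, and 2949 (17.9%) were higher and 1864 (11.3%) lower at day 21. Without day 21 replicate 2, 4207 were higher and 3748 lower at day 21 than at day 0.

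**Figure D1:**
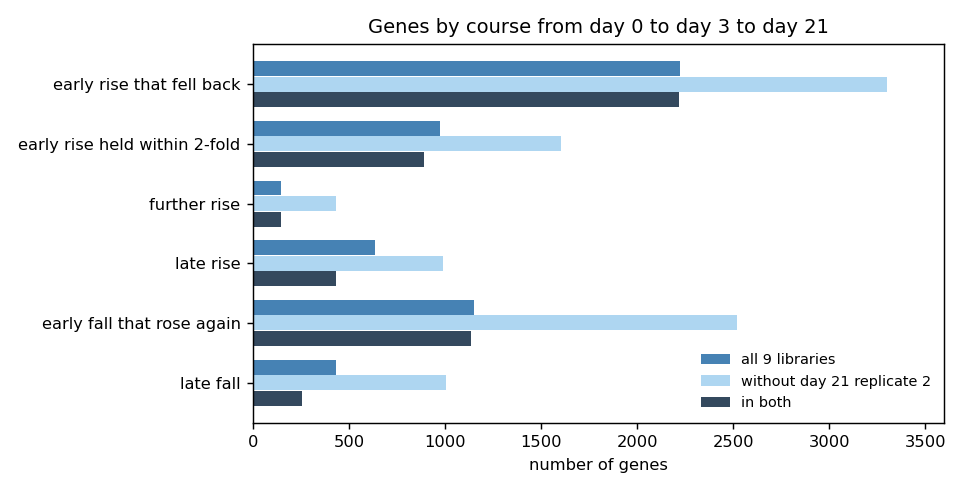
Number of genes (x axis) in each course from day 0 through day 3 to day 21 (y axis), in the fit of all 9 libraries, without day 21 replicate 2, and in both. The most frequent course was an early rise that fell back (2225 genes), followed by an early fall that rose again (1149 genes). Held genes that were called lower than at day 3 are counted under held and under fell back.

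Genes were sorted by their course, as a description and with no test, since both contrasts behind it use the same day 3 libraries. An early rise that fell back by day 21 was the course of 2225 genes, and 2217 of these kept it in the 8-library refit. Of the 2225, 1019 were still higher than at day 0, 1174 were not called against day 0 and 32 were lower. By a separate rule, which can overlap with the first, 972 genes held their early rise. They were higher than day 0 at both times, and the 95% interval of the change from day 3 lay within 2-fold. Of these, 891 were held in the refit too. A held gene that was called lower than at day 3 is also among the 2225. In the list counts below such a gene is counted as held only. In all, 146 genes rose at day 3 and rose again by day 21. Late rises, higher at day 21 than at day 3 without an early rise or fall, numbered 633. In the opposite direction, 1149 genes fell early and rose again, of which 341 were still below day 0, 777 were not called and 31 were above it. Late falls, lower at day 21 than at day 3 without an early rise, were seen in 432 genes. Of these, 420 were not called at day 3 and 12 had already fallen by then. The smaller courses depend on single libraries: without each day 3 library in turn, late rises came to 334, 380 and 362, early falls that rose again to 610, 618 and 612, and late falls to 220, 227 and 215, and without day 21 replicate 2 they came to 989, 2522 and 1003. Without day 21 replicate 2 there were 430 further rises. Early falls that rose again then divided into 1023 still below day 0, 1257 not called and 242 above it, and 187 early rises fell back to below day 0. The plot of genes by course shows these counts.

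Genes were also grouped into 54 lists by known function or cell type, chosen with earlier results of these data known. List counts, medians and ranks are therefore a description and no independent support. The shares over all genes tested were 11.7% higher and 16.1% lower, or 23.5% and 25.7% in the refit, and 5.89% were held. For a list given below with no rise or no fall, edgeR called at most 1 member in that direction at an unadjusted p under 0.05, and DESeq2 at most 1 after adjustment; MHC class II genes were the exception.

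**Figure D2:**
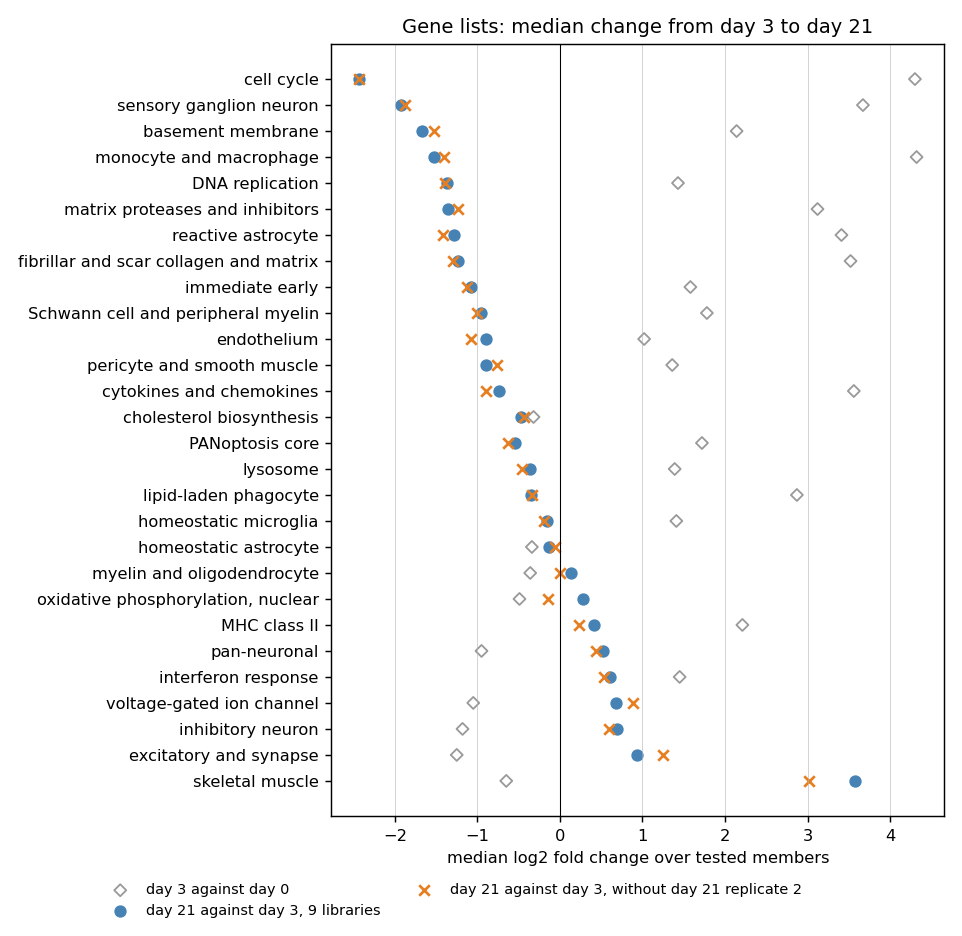
Median log2 fold change (x axis) over the tested members of each gene list (y axis): day 3 against day 0, day 21 against day 3 in all 9 libraries, and day 21 against day 3 without day 21 replicate 2. Cell cycle genes had the lowest median from day 3 to day 21 (-2.43) and skeletal muscle genes the highest (3.57).

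Genes of cell division had the lowest median change of the lists. Of 30 tested cell cycle genes, which drive and carry out mitosis, 29 fell and none rose, in the 9-library fit as in the refit, with a median log2 fold change of -2.43 in both. All 29 had risen at day 3 and 28 of the 30 were still above day 0 at day 21. Ccnb2 (cyclin B2, a partner of the kinase that starts mitosis) was at 0.216, 0.247 and 0.295 FPKM at day 0, 8.02, 8.11 and 9.31 at day 3 and 1.07, 1.12 and 0.817 at day 21. Every day 21 library was thus far below every day 3 library, and the log2 fold change was -3.15 ± 0.18 (SE, edgeR adjusted p = 8.2e-06; -3.21 in the 8-library refit). Plk1 (a kinase of mitotic entry and spindle assembly) had a mean of 8.39 FPKM at day 3 and 1.17 at day 21. Of 29 DNA replication genes, which unwind and copy DNA, 26 fell and none rose, with a median of -1.37 (-1.39 in the refit), and 9 were still above day 0.

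The CCAAT box is an element that, as background, the factor NF-Y binds in the promoters of many mitotic genes. For that textbook reason, promoters of the cell cycle list were searched for the letters CCAAT on either strand in the 250 bases before the gene start. The letters were found in 20 of the 25 members with a RefSeq promoter (80.0%), against 10133 of 27025 gene symbols (37.5%). These shares describe a list chosen by known function. They do not depend on the changes measured here and are no evidence of binding in these samples. The last 160 bases before the start are shown for a pair of members, with matches in capitals. Ccnb2 (GRCm38.p6, chr9:70421555-70421714, minus strand) holds 3 matches, the nearest starting 21 bases before the gene, and Plk1 (chr7:122159275-122159434, plus strand) holds 1, starting 14 bases before it.
Ccnb2: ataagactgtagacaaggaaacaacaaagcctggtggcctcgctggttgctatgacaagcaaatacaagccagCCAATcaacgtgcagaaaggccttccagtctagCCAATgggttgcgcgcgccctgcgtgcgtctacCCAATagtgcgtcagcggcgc
Plk1: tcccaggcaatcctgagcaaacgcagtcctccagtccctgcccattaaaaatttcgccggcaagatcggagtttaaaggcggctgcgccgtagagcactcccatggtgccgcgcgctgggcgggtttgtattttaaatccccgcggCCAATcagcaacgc

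Genes of early macrophages and of the acute phase were among those that fell most. Arg1 (arginase 1, a marker of wound macrophages) was at 67.7, 63.3 and 67.5 FPKM at day 3 and at 0.516, 0.559 and 0 at day 21. Day 0 had 0.0769 to 0.301, and no difference between day 21 and day 0 was called. The log2 fold change from day 3 was the lowest among called genes at 5 FPKM or more, at -7.56 ± 0.53 (edgeR adjusted p = 2.56e-05; -7.97 in the 8-library refit). Saa3 (serum amyloid A3, an acute phase protein) went from 45.7, 52.9 and 50.8 FPKM to 0.478, 1.17 and 0.263, a log2 fold change of -6.34 ± 0.41 (-7.05 in the refit). Serpina3m, of a family of closely related protease inhibitor genes between which reads can be shared, fell by 6.14 on the log2 scale. Lcn2 (lipocalin 2, which binds iron carriers of bacteria and is made by reactive astrocytes and neutrophils) stood at 34.7, 31.8 and 27.8 FPKM at day 3 and 2.43, 4.35 and 2.92 at day 21, still above the 0.248 to 0.564 of day 0.

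Of 25 monocyte and macrophage genes, 20 fell and none rose (21 fell and 1 rose in the refit), with a median of -1.53 (-1.40), and 22 were still above day 0. The summed FPKM of 5 defining markers of these cells (Lyz2, Cd68, Ms4a7, Adgre1 and Itgam) was 622, 617 and 627 at day 3 and 448, 663 and 448 at day 21: in the marker sum, day 21 replicate 2 lay above all day 3 libraries and the other day 21 libraries below them. Lyz2 made up most of that sum. Cd68, Adgre1 and Itgam were lower in every day 21 library than in any day 3 library, and Ms4a7 overlapped. For Adgre1 (4.87, 4.63 and 6.43 FPKM) and Itgam (6.82, 3.38 and 7.54), replicate 2 was the lowest at day 21. Spp1 (osteopontin, a secreted protein of phagocytes) fell from 379.6, 375 and 375 FPKM to 81.2, 104 and 93.6. Hmox1 (haem oxygenase 1, which breaks down haem from lysed red blood cells) was the member of the iron and haem list with the lowest change, at 224, 224 and 233 FPKM at day 3 and 10.5, 12.5 and 9.39 at day 21. The 3 day 21 values of Hmox1 remained above the 3.25 to 3.89 of day 0, and its log2 fold change was -4.47 ± 0.14 (edgeR adjusted p = 1.02e-06; -4.57 in the refit). Of the 22 tested genes of that list, 13 fell and none rose (19 of 23 in the refit).

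Transcripts of many secreted signals of the first days fell. Of 30 cytokines and chemokines tested, 15 fell and 4 rose (18 and 4 in the refit), with a median of -0.74 (-0.90). Without day 3 replicate 2 or 3, 2 rose. Csf3, the growth factor that drives neutrophil production, had 289 counts over the 3 day 3 libraries and 1 over the 3 day 21 libraries. The ratio per library total was 0.0038, with an exact Poisson interval from 9.58e-05 to 0.0213 that covers counting error only. Cxcl1, which attracts neutrophils, was at 4.80, 5.27 and 4.18 FPKM at day 3 and 0.202, 0.195 and 0.124 at day 21. The summed FPKM of 5 neutrophil markers was nevertheless 30.8, 61.8 and 21.8 at day 21 against 30.9, 28.4 and 23.4 at day 3, so these sums overlapped between the days. Of these markers, Mmp8 was lower and Retnlg higher in every day 21 library than in any day 3 library. S100a8, S100a9 and Ly6g overlapped. Of 26 immediate early genes, which are switched on within minutes of a stimulus, 19 fell and 1 rose (21 and 1 in the refit; the 1 rise was not called without day 3 replicate 2). Fosl1, a partner in the AP-1 transcription factor, fell from 8.30, 7.45 and 7.85 FPKM to 0.632, 0.443 and 0.655, but 57.2% of its exon length overlaps another gene, and no label says whether counting used the strand.

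Transcripts of scar matrix genes were lower at day 21 than at day 3 but stayed well above day 0. Of 29 genes of fibrillar collagen and scar matrix, 26 fell and none rose (28 and 1 in the refit), with a median of -1.23 (-1.30), while 27 were still above day 0. Col1a1 (the alpha 1 chain of type I collagen) was at 6.96 to 7.46 FPKM at day 0, 170.5, 167 and 167 at day 3 and 73.4, 92.4 and 68.2 at day 21. Its fall of -1.18 ± 0.11 (edgeR adjusted p = 0.000119; -1.30 in the refit) thus left it 3.31 log2 units above day 0. Tnc (tenascin C, a matrix protein of wounds) fell further, from 28.4, 26.7 and 27.1 FPKM to 3.63, 3.62 and 3.56, and so did Lox (lysyl oxidase, which cross-links collagen), from 17.3, 18.4 and 17.7 to 2.09, 1.58 and 2.45. Of 23 matrix proteases and inhibitors, 16 fell and 3 rose (18 and 3 in the refit; 1 rise was called without day 3 replicate 1), with a median of -1.36. The 5 fibroblast markers summed to 473 to 475 FPKM at day 3 and to 249.7, 311 and 248 at day 21.

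Vessel and basement membrane genes fell back towards their day 0 level. All 16 basement membrane genes had risen at day 3. By day 21, 14 of them fell and none rose (15 in the refit), with a median of -1.67 (-1.52). Even so, 12 of the 16 were still above day 0 at day 21, and the median of the list against day 0 was 0.94. Col4a1 (a type IV collagen chain) was at 8.18, 8.56 and 8.44 FPKM at day 0, 105, 104 and 106 at day 3 and 16, 12.2 and 15.3 at day 21, a log2 fold change of -2.92 ± 0.13 (edgeR adjusted p = 2.64e-06; -2.80 in the refit). Of 25 endothelial genes, 17 fell and 1 rose (19 and 2 in the refit), and their median against day 0 was 0.00. Cdh5 (VE-cadherin, which joins endothelial cells) went from 60.9, 57.7 and 58.5 FPKM to 13, 8.12 and 12, where day 0 had 7.33 to 8.22. Angpt2, a signal that destabilises vessels during sprouting, fell from 13.2, 12.9 and 13.2 FPKM to 1.47, 1.61 and 1.61. Selp (P-selectin, which captures leukocytes on inflamed vessel walls) was at 6.29, 4.58 and 5.06 FPKM at day 3 and no more than 0.104 in any day 21 library. The 5 endothelial markers summed to 150.3 to 157 FPKM at day 3, and their day 21 sums of 50.7, 65.9 and 47.6 overlapped those of day 0 (48.3 to 58.5). Pericyte and smooth muscle genes moved alike in count, with 10 of 16 lower and 1 higher (12 and 2 in the refit); the 1 rise was not called without any 1 of the 3 day 3 libraries or without day 0 replicate 3.

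Genes of peripheral nerve that had risen at day 3 also fell. Of 24 genes of Schwann cells and peripheral myelin, 18 fell and 1 rose (21 and 1 in the refit). Ngfr (the p75 neurotrophin receptor, a marker of Schwann cells that have lost their axon) went from 63.0, 62.1 and 59.6 FPKM at day 3 to 5.64, 4.43 and 5.50 at day 21, a log2 fold change of -3.64 ± 0.16 (edgeR adjusted p = 2.22e-06; -3.52 in the refit). Gdnf, a growth factor that injured Schwann cells make, fell from 3.03, 2.81 and 2.90 FPKM to 0.326, 0.294 and 0.279. Among 18 genes of sensory ganglion neurons, whose cell bodies lie outside the cord, 13 fell and 1 rose (15 and 1 in the refit), with a median of -1.93 (-1.88); leaving out a single library of day 0 or of day 3 ended the 1 rise. Scn10a, a sodium channel of pain-sensing neurons, was at 0 to 0.00989 FPKM at day 0, 9.11, 8.77 and 9.37 at day 3 and 1.42, 1.20 and 1.73 at day 21. Whether root or ganglion tissue entered the samples in differing amounts was not tested; the 5 Schwann cell markers summed to 695 to 713 FPKM at day 3 and to 372, 409 and 333 at day 21, against 209 to 258 at day 0.

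Astrocyte genes split into an injury programme that receded and a maintenance programme that did not move as a list. Of 30 reactive astrocyte genes, 24 fell and 2 rose (26 and 2 in the refit), with a median of -1.28 (-1.42), and 25 were still above day 0. Gfap, the astrocyte filament protein that rises in any gliosis, was at 2015, 2003 and 2019 FPKM at day 3 and 1577, 1934 and 1548 at day 21, where day 0 had 539 to 562. Its small decrease of -0.33 ± 0.10 passed with 9 libraries (edgeR adjusted p = 0.0303). It did not pass without any 1 of the day 3 libraries, day 21 replicate 1 or 3 or day 0 replicate 1 or 2 (up to 0.0943). Nor did it pass under a replicate block, upper quartile scaling or no count filter, in limma fits of log2 FPKM, or with the day 3 and day 21 libraries only. Gfap met the definition of held. Of 22 genes of resting astrocytes, 3 rose and 3 fell (6 and 7 in the refit), near the shares over all genes in both fits. Slc6a11, a transporter that clears the inhibitory transmitter GABA, was at 149 to 162 FPKM at day 0, 59.2, 58.2 and 61.6 at day 3 and 121, 81.1 and 119 at day 21. Ntsr2, a receptor gene that astrocytes carry, rose from 91.8, 87.1 and 87.7 FPKM to 146, 211 and 131, and its day 21 libraries overlapped the 146 to 163 of day 0.

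**Figure D3:**
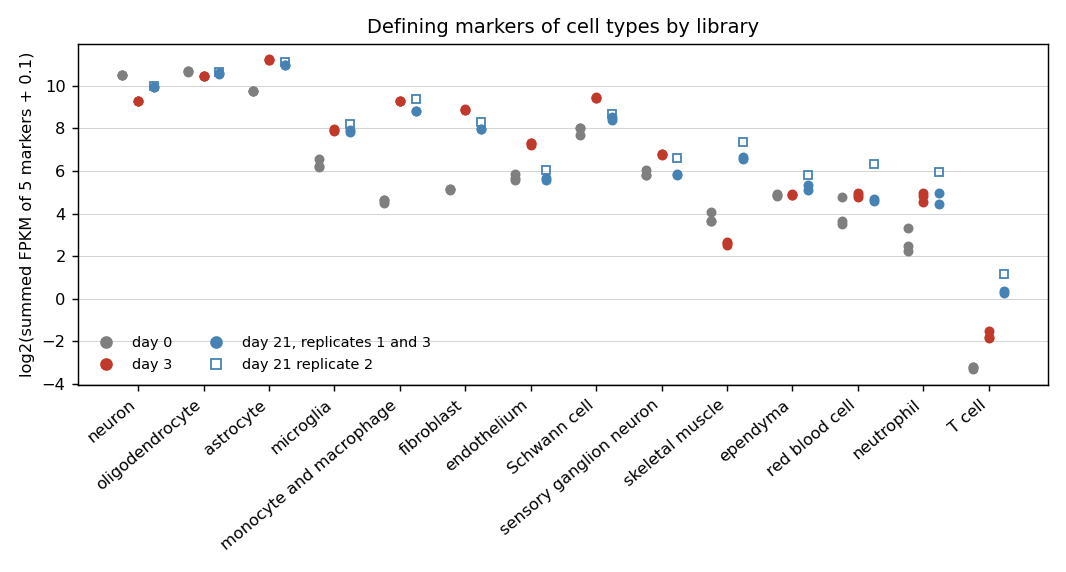
Each point is 1 library: log2 of the summed FPKM of 5 defining markers plus 0.1 (y axis) for each cell type (x axis), coloured by day, with day 21 replicate 2 as an open square. Summed endothelial, fibroblast and Schwann cell markers were lower in all day 21 libraries than at day 3. Summed neuron and skeletal muscle markers were higher. Day 21 replicate 2 stood above its group in the sums of monocyte, red blood cell and muscle markers. Single markers can differ from their sum.

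Among the 12 held genes with the highest day 21 level relative to day 0, Gpnmb (a membrane glycoprotein of phagocytes laden with lipid) was at 0.676 to 0.713 FPKM at day 0, 63.5, 60.2 and 63.4 at day 3 and 54.3, 47.9 and 51.8 at day 21. It was held within 2-fold although lower by edgeR (-0.35 ± 0.09, adjusted p = 0.0211; -0.29 in the refit), a call that was lost without any 1 of the day 3 libraries (adjusted p up to 0.0832). Mpeg1 (perforin-2, a pore-forming protein of macrophages and microglia) stood at 76.6, 79.5 and 79.2 FPKM at day 3 and 83.0, 77.9 and 86.3 at day 21, and the groups overlapped (log2 fold change 0.00 ± 0.09; 0.05 in the 8-library refit). Smoc2, a matrix protein, was at 19.8, 20 and 20.4 FPKM at day 3 and 16.5, 19.8 and 18.3 at day 21, more than 3 log2 units above day 0 at both times. Itgb2 (the beta 2 chain of leukocyte integrins) was held within 2-fold although it fell, from 23.7, 23.2 and 23.8 FPKM to 16.7, 15.6 and 17.6 (-0.58 ± 0.11, edgeR adjusted p = 0.00529; -0.52 in the refit). For Lyz2 (lysozyme 2), replicate 2 decided the picture: its levels were 459.6, 471 and 475 FPKM at day 3 and 345, 552 and 350.2 at day 21, with a log2 fold change of -0.25 ± 0.16 (edgeR adjusted p = 0.297) that became -0.49 (adjusted p = 0.00023) without it.

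Of 31 lysosomal genes, 16 were held and 9 fell back; in all 13 fell and none rose, with a median of -0.36, and 22 were still above day 0. Without day 21 replicate 2, 23 fell and 1 rose (median -0.46), so how many lysosomal genes receded depends on that library. Of 20 genes of resting microglia, 9 were held, 4 fell and 1 rose (6 and 4 in the refit; the 1 rise was lost without day 21 replicate 1 or any 1 of the day 3 libraries). All 11 MHC class II genes, which present peptides to T helper cells, were above day 0 at day 21, and 5 met the definition of held. None was called higher or lower than at day 3 by edgeR, where 5 were higher and none lower at an unadjusted p under 0.05. DESeq2 called 4 higher and the refit 2. The summed FPKM of the list was 293 to 301 at day 3 and 357, 533 and 346 at day 21. Complement genes stood between the courses, with 9 of 22 held, 9 fallen back and 3 that rose further.

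**Figure D4:**
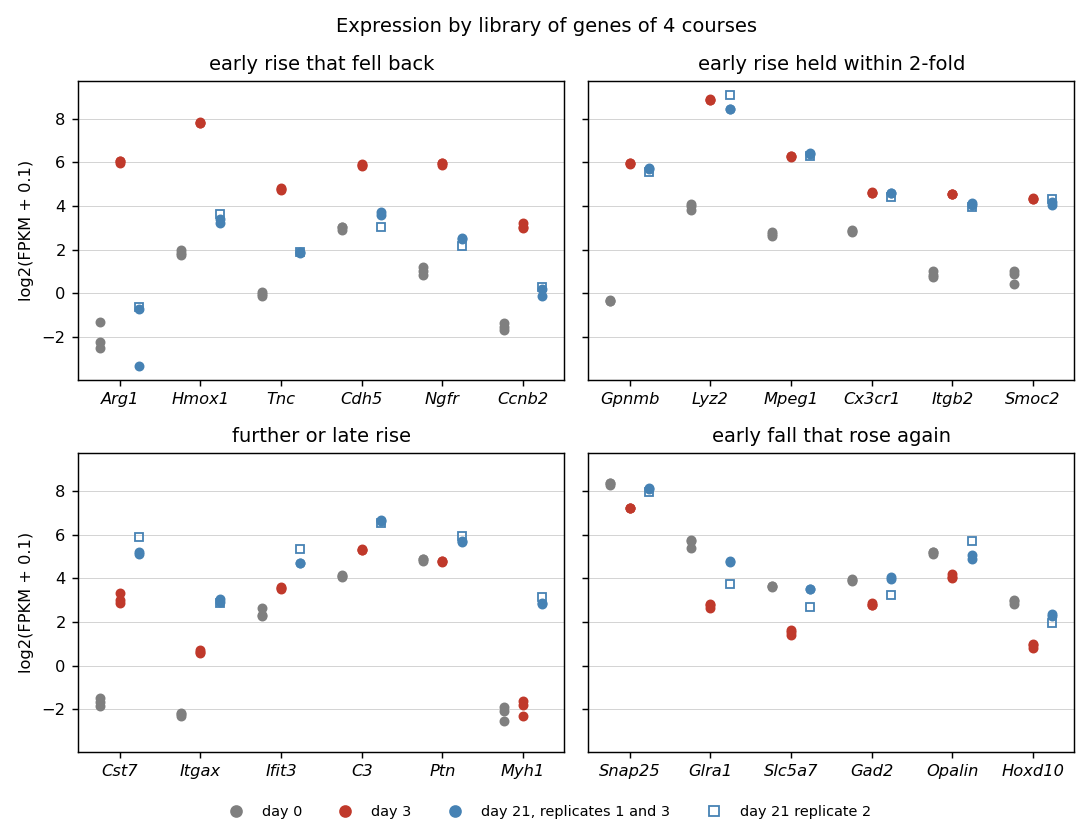
Each point is 1 library: log2 of FPKM plus 0.1 (y axis) for named genes (x axis) of 4 courses (panels), coloured by day, with day 21 replicate 2 as an open square. Arg1 returned from 63.3 FPKM or more at day 3 to 0.559 or less, Mpeg1 stayed level, Itgax rose at both steps and Snap25 fell and rose again.

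Some phagocyte genes went on rising while other members of their list fell. Of 29 genes of lipid-laden phagocytes, 12 fell and 5 rose (15 and 8 in the refit), and 27 were above day 0 at day 21. The 5 that rose were Cst7, Itgax, Mmp12, Clec7a and Lpl, the last 2 of which were named after their values were seen. Cst7 (cystatin F, an inhibitor of lysosomal proteases) was at 0.173 to 0.257 FPKM at day 0, 9.77, 8.03 and 7.27 at day 3 and 34.5, 59.1 and 36.7 at day 21, a log2 fold change of 2.30 ± 0.22 (edgeR adjusted p = 0.000116; 2.03 in the refit). Itgax (CD11c, an integrin of dendritic cells and activated microglia) rose from 1.41, 1.55 and 1.45 FPKM to 7.32, 7.19 and 8.09 (2.29 ± 0.12; 2.33 in the refit). Mmp12, the macrophage elastase, was at 0 in all day 0 libraries, 0.317 to 0.482 FPKM at day 3 and 1.66, 1.73 and 1.46 at day 21. Clec7a (dectin-1, a pattern receptor) went from a mean of 5.30 to 17.9 FPKM and Lpl (lipoprotein lipase) from 4.39 to 11.2. In each of these genes the 3 day 21 libraries lay above the 3 day 3 libraries, as in 22.9% of all genes tested. The genes were picked because they were called higher, so this adds no support. C3, the central protein of complement and in addition a marker of reactive astrocytes, rose from 39.7, 38.5 and 39.5 FPKM to 99.6, 92.0 and 101 (1.24 ± 0.09, edgeR adjusted p = 3.68e-05; 1.30 in the refit).

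Of the 54 lists, the interferon response had the most further rises. All 30 had risen at day 3; 16 of them rose again by day 21 and 4 fell (17 and 4 in the refit), with a median of 0.61 (0.53), against 0.016 for all genes. Without day 3 replicate 1 the count of higher members was 10, and the count of lower members was 1 or 2 without 7 of the single libraries. Ifit1, which binds viral RNA that lacks a host cap, was at 1.17 to 1.30 FPKM at day 0, 2.67, 2.31 and 2.55 at day 3 and 6.50, 5.51 and 6.98 at day 21. The groups were in 3 separate steps, and the change from day 3 was 1.27 ± 0.14 (edgeR adjusted p = 0.000281; 1.37 in the refit). Ifit3 rose from 11.9, 11.3 and 11.6 FPKM to 26.2, 40.2 and 25.9 and Ifit3b from 3.48, 3.46 and 3.62 to 11, 12.3 and 9.37; since these genes are near-identical copies, how their reads were divided is uncertain. Cxcl10, an interferon-induced chemokine for T cells, went from 1.62, 1.53 and 1.52 FPKM to 2.94, 4.11 and 3.52. The summed FPKM of the list did not separate the days, at 298, 313 and 313 at day 3 and 265, 416 and 236 at day 21.

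Interferon acts, as background, through a promoter element that a complex of STAT and IRF9 binds. Promoters of the list were searched for GAAA, any 2 bases and a second GAAA on either strand in the 250 bases before the gene start, and 15 of 22 members with a RefSeq promoter held it (68.2%), against 936 of 27025 gene symbols (3.46%). A match is a description of the letters and no evidence of binding in these samples. The last 160 bases are shown for Ifit1 and Ifit3, with matches in capitals. Ifit1 (GRCm38.p6, chr19:34640729-34640888, plus strand) holds 2, starting 104 and 85 bases before the gene, and Ifit3 (chr19:34583369-34583528, plus strand) holds 2, starting 156 and 122 bases before it; in both genes they read as the reverse complement.
Ifit1: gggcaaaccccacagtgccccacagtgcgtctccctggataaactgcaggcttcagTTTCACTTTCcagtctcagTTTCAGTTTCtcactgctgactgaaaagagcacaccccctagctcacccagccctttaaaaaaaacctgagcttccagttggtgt
Ifit3: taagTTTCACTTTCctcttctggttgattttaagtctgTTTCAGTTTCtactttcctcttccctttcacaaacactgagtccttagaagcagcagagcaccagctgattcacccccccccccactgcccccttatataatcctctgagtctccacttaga

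Lymphocyte transcripts were few. Of 26 genes of T and NK cells only 7 passed the count filter, and of these 2 rose and 2 fell; 1 of the rises was lost without day 3 replicate 2 or 3. The T cell receptor chain Cd3e had 1 count over the day 3 libraries and 31 over the day 21 libraries, a ratio of 34 (exact Poisson interval 5.67 to 1386), and Cd3g had 3 and 29 (10.6, 3.29 to 54.4); these intervals cover counting error only. All 3 day 21 libraries held Cd3e reads, at 0.575, 0.527 and 0.341 FPKM, and 2 of the 3 day 3 libraries held none. The sum of 5 T cell markers was 1.18, 2.16 and 1.10 FPKM at day 21 and 0.177 to 0.25 at day 3. Of 10 B and plasma cell genes tested, 5 rose and 2 fell, in the refit as well. The 5 B and plasma cell markers summed to 0.732, 0.69 and 0.814 FPKM at day 3 and 1.01, 1.41 and 0.817 at day 21.

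Late rises without an early change included genes of several tissues. Ptn (pleiotrophin, a growth factor that binds chondroitin sulphate) was level between day 0 (27.4 to 29.6 FPKM) and day 3 (26.9, 27.5 and 27.6) and was at 52.3, 60.3 and 50.1 at day 21, a log2 fold change of 0.92 ± 0.10 (edgeR adjusted p = 0.000275; 0.85 in the refit). Rgs17, a brake on G protein signalling, was at 3.35, 3.65 and 3.93 FPKM at day 3 and 9.35, 5.57 and 10.3 at day 21, with replicate 2 the lowest of its group (1.14 ± 0.22; 1.38 in the refit). Fam180a rose from 1.55, 1.39 and 1.34 FPKM to 7.03, 8.65 and 6.62.

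Among called genes at 5 FPKM or more, skeletal muscle genes led the rises. Of 24 genes of muscle fibres, 18 rose and none fell (19 and 3 in the refit), with a median of 3.57 (3.02), and 11 of the 12 called genes with the highest fold changes at that level encode muscle proteins. Ckm (the creatine kinase of muscle) was at 4.18, 4.39 and 3.65 FPKM at day 0, 0.746, 0.473 and 0.663 at day 3 and 28.9, 46.5 and 27.8 at day 21, a log2 fold change of 5.69 ± 0.27 (edgeR adjusted p = 3.13e-06; 5.44 in the refit). Myh1 (a myosin heavy chain of fast fibres) rose from 0.104, 0.225 and 0.186 FPKM to 7.17, 8.83 and 7.02 (5.39 ± 0.30; 5.30 in the refit). The 5 defining muscle markers (Acta1, Ckm, Myh4, Mylpf and Tnnt3) summed to 12.5 to 16.6 FPKM at day 0, 5.63 to 6.16 at day 3 and 102, 164 and 95.7 at day 21. Muscle is no part of the cord, all 3 day 21 libraries held these transcripts, and whether adhering muscle was sampled with the cord was not tested. Red blood cell markers stood at 25.4, 81.1 and 23.9 FPKM at day 21, so that replicate 2 was highest for both. The remaining gene of the 12, Apoc4 (an apolipoprotein next to Apoe), rose by 2.77 on the log2 scale (edgeR adjusted p = 0.0168). Its levels were 1.34, 1.08 and 0.867 FPKM at day 3 and 4.38, 15.6 and 4.22 at day 21, with replicate 2 far above its group. In the refit the rise was 1.90 (edgeR adjusted p = 0.0025). The edgeR adjusted p of Apoc4 was 0.0537, 0.0633 and 0.0653 without day 3 replicate 1, 2 and 3 in turn.

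Neuronal genes recovered in part. Of 22 pan-neuronal genes, 12 rose and 1 fell (13 and 3 in the refit), with a median of 0.52 (0.44); 11 of the 12 were early falls that rose again, and 13 of the 22 were still below day 0. Snap25 (a protein of synaptic vesicle fusion) was at 309, 329.8 and 331 FPKM at day 0, 147, 147 and 147 at day 3 and 269, 250.5 and 279 at day 21. The 3 days did not overlap, and the rise from day 3 was 0.79 ± 0.09 (edgeR adjusted p = 0.000365; 0.84 in the refit). Elavl4 (HuD, an RNA-binding protein of neurons) rose from 2.24, 2.40 and 2.12 FPKM to 4.79, 4.48 and 5.02, where day 0 had 4.03 to 4.34. The 5 neuron markers summed to 618, 619 and 618 FPKM at day 3 and 999, 1011 and 986 at day 21, against 1446 to 1482 at day 0. Of the 5, Stmn2 did not rise throughout, at 60.7, 61.4 and 59.8 FPKM at day 3 and 55.5, 77.2 and 55.4 at day 21.

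Genes of synapses, inhibition and firing rose as well. Of 30 genes of excitatory transmission and the synapse, 18 rose and 1 fell (26 and 1 in the refit; 11 rose without day 3 replicate 2), with a median of 0.93 (1.25). Of 14 inhibitory neuron genes, 7 rose and none fell (12 in the refit), and of 23 voltage-gated ion channel genes 10 rose and none fell (20 in the refit). The refit itself ran with gene length. In the longest group of 3215 genes, 1223 were higher and 553 lower, against 437 and 933 in the shortest. How much of the larger refit counts of these lists goes with length was not tested. Glra1 (a subunit of the glycine receptor) was at 41.0, 53.6 and 51.7 FPKM at day 0, 6.89, 6.83 and 6.05 at day 3 and 27.3, 13.2 and 26.3 at day 21, a rise of 1.69 ± 0.27 (edgeR adjusted p = 0.00218; 1.96 in the refit). Gad2, an enzyme that makes GABA, rose from 7.2, 6.79 and 6.80 FPKM to 15.4, 9.41 and 16.6, against 14.6 to 15.4 at day 0. Scn1a, a sodium channel of fast-firing neurons, rose from 2.10, 2.27 and 3.47 FPKM to 8.73, 5.62 and 6.34. For these long transcripts replicate 2 was the lowest of the day 21 libraries, and it still lay above every day 3 library.

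Motor neuron genes moved both ways. Of 18 genes of motor and cholinergic neurons, 8 rose and 4 fell (7 and 7 in the refit; 5 rose without day 21 replicate 1 or any 1 of the day 3 libraries). Slc5a7, which takes up choline for acetylcholine synthesis, was at 12.1 to 12.3 FPKM at day 0, 2.80, 3.00 and 2.51 at day 3 and 11.2, 6.35 and 11.4 at day 21, so replicates 1 and 3 were near the day 0 level and replicate 2 was not (1.73 ± 0.22, edgeR adjusted p = 0.000615; 1.97 in the refit). Chodl, a marker of fast motor neurons, rose from 1.57, 1.49 and 0.991 FPKM to 4.5, 4 and 4.63, below the 8.10 to 9.58 of day 0. Mmp9, a protease that fast motor neurons also make, fell at both steps, from 6.02 to 6.56 FPKM at day 0 to 4.57, 4.47 and 3.96 at day 3 and 2.94, 2.96 and 2.96 at day 21. Hox genes, whose combination marks the level along the cord, gave 3 rises and no fall among 6 tested lumbosacral members (4 and 1 of 7 in the refit). Hoxd10 was at 7 to 7.82 FPKM at day 0, 1.64, 1.84 and 1.88 at day 3 and 5.03, 3.82 and 4.78 at day 21. Whether the stretch of cord sampled differed between days was not tested.

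Central myelin genes moved less. Of 27 genes of myelin and oligodendrocytes, 7 rose and 3 fell (9 and 5 in the refit), with a median of 0.13 (0.00); 4 rose without day 3 replicate 1 or 2 or day 0 replicate 2 or 3. Opalin, a membrane protein of mature oligodendrocytes, rose from 16.1, 16.3 and 18 FPKM to 32.9, 51.9 and 29.4 (1.10 ± 0.19, edgeR adjusted p = 0.00291; 0.84 in the refit). Ermn, a cytoskeletal protein of the same cells, rose from 37.0, 38.6 and 37.0 to 72.9, 52.6 and 80.2. Replicate 2 was the highest of its group for the first and the lowest for the second. Of 20 genes of oligodendrocyte precursors, 6 fell and 2 rose (8 and 5 in the refit), with rises near the share over all genes. Neither rise was called without any 1 of the day 3 libraries or without day 21 replicate 1. Among 20 proteoglycan and perineuronal net genes, 3 rose and 7 fell (5 and 8 in the refit). Hapln1, a link protein of perineuronal nets, rose from 0.909, 1.05 and 0.968 FPKM to 2.59, 2.31 and 2.92, while Ncan (neurocan) fell from 18.7 in each day 3 library to 9.79, 6.26 and 10.3, below the 14.2 to 15.3 of day 0. Of 19 ependymal and cilia genes, 2 rose and 1 fell (7 and 1 in the refit). With 9 libraries the rises were near the share over all genes. Ccdc153, of motile cilia, was at 1.89, 1.44 and 2.41 FPKM at day 3 and 5.26, 9.88 and 4.77 at day 21.

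Of the 54 lists, cholesterol synthesis had the most late falls. Of 22 genes of this pathway, which supplies membrane and myelin sterol, 9 fell and none rose (16 in the refit), with a median of -0.47 (-0.43), and 16 were below day 0. All 9 were late falls, a course that can include genes already lower at day 3. Of the 22, 10 were called lower at day 3 than at day 0 (median -0.32), so the decrease of the list did not begin after day 3. The summed FPKM of the list stepped down from 607 to 634 at day 0 to 451, 457 and 454 at day 3 and 361, 360.1 and 365 at day 21, so replicate 2 was in its group. Sqle, an enzyme of the committed part of the pathway, was at 11.8 to 14.6 FPKM at day 0 and fell from 10.9, 11.6 and 10.6 at day 3 to 6.89, 6.41 and 7.58 at day 21 (-0.74 ± 0.13, edgeR adjusted p = 0.00302; -0.67 in the refit).

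PANoptosis is a form of inflammatory cell death in which parts of the pyroptosis, apoptosis and necroptosis machinery act in 1 complex. Of its 29 core genes on the list 27 were tested, of which 15 fell and 1 rose (18 and 1 in the refit), with a median of -0.54 (-0.63). Of the kinases and the effector of necroptosis, Ripk3 went from 2.45 ± 0.48 FPKM (SD, n = 3) to 0.396 ± 0.273, Mlkl from 1.17 ± 0.10 to 0.327 ± 0.013 and Ripk1 from 2.61 ± 0.41 to 1.09 ± 0.58. Their log2 fold changes were -2.70, -1.91 and -1.32 (-3.40, -1.93 and -0.99 in the refit). The initiator Casp8 fell from 5.53 ± 0.16 to 2.72 ± 0.41 FPKM and the executioner Casp6 by 1.18 on the log2 scale, whereas the inflammatory caspases Casp1 (0.18, edgeR adjusted p = 0.673) and Casp4 (-0.12, adjusted p = 0.805) were held. Among sensors, Nlrp3 fell by 1.13 and Zbp1 by 0.61, while Aim2, a sensor of cytosolic DNA, was at 1.06, 1.41 and 1.06 FPKM at day 3 and 1.77, 2.17 and 2.19 at day 21 (0.72 ± 0.20, edgeR adjusted p = 0.024; 0.69 in the refit).

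Of the remaining PANoptosis genes, Bak1 (with 25.5% exon overlap) fell by 1.09, Fadd by 0.54, Pycard by 0.58, Gsdmd by 0.48, Il1b by 1.38 and Parp1 by 0.37 on the log2 scale. Differences for Tradd (-0.20), Ninj1 (-0.58), Diablo (-0.35, 40.9% exon overlap), Bax (-0.18), Irf1 (-0.17), Tnfaip3 (-0.04), Nlrp1b (0.02), Dfna5 (0.37) and Il18 (0.71) did not pass, and Tradd, Ninj1 and Diablo passed in the refit (-0.49, -0.76 and -0.51). Mefv had 29 counts at day 3 and 0 at day 21. The exact Poisson interval of its ratio, which covers counting error only, reached up to 0.149. Nlrc4 was too low to test. Several of these calls rest on single libraries: 9, 8, 9 and 9 genes fell without day 21 replicate 1 and without day 3 replicates 1, 2 and 3. The rise of Aim2 was lost without day 3 replicate 1 or 3 (adjusted p = 0.0955 in both) or day 21 replicate 3 (0.0688), and the fall of Ripk1 without day 3 replicate 1 (0.0725) or day 21 replicate 1 (0.0622). The falls of Zbp1, Pycard, Gsdmd, Parp1 and Il1b were each lost without any 1 of the 3 day 3 libraries (highest adjusted p 0.122, 0.123, 0.114, 0.109 and 0.102). They were lost as well without day 21 replicate 1 (Zbp1, Pycard, Gsdmd and Parp1), without day 21 replicate 3 (Zbp1, Pycard, Gsdmd and Il1b) and, in each of the 5 genes, without at least 1 day 0 library. The fall of Fadd was lost without day 3 replicate 2 or 3 or day 21 replicate 1 or 3 (highest adjusted p 0.087). Calls for Ripk3, Mlkl, Casp6, Casp8, Nlrp3 and Bak1 were the same in every leave-out.

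**Figure D5:**
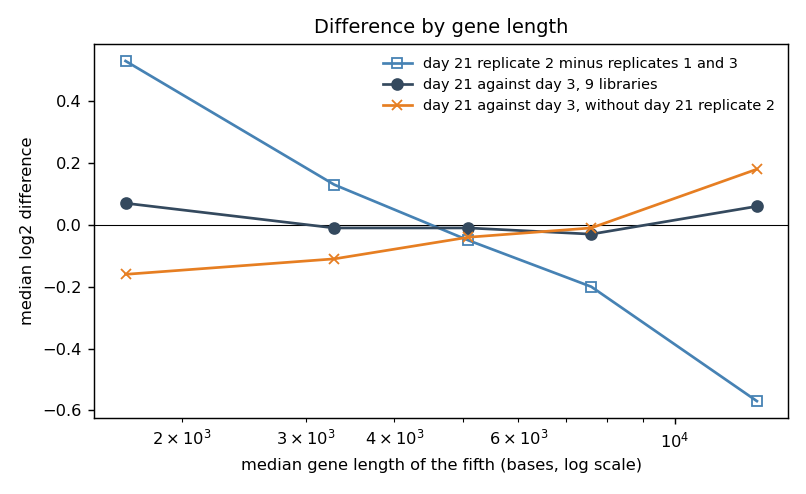
Median log2 differences (y axis) for 5 equal groups of tested genes by gene length (x axis, median bases on a log axis): day 21 replicate 2 minus replicates 1 and 3, and day 21 against day 3 with and without replicate 2. Replicate 2 ran from 0.53 in the shortest group to -0.57 in the longest, and the comparison without it ran the other way, from -0.16 to 0.18.

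The length trend of day 21 replicate 2 touched the lists of short genes most. Ribosomal protein genes, which are short, took 1.15% of the counts of replicate 2 and 0.523% and 0.475% in the other day 21 libraries, against 0.747% to 0.766% at day 3. Of 36 tested, 2 fell with 9 libraries (median -0.14) and 24 without replicate 2 (-0.71). Nuclear genes of oxidative phosphorylation had 1 rise, no fall and a median of 0.28 with 9 libraries, and 2 rises, 2 falls and a median of -0.15 without replicate 2. For both lists the 9-library result and the refit differ in count or in sign, and no direction is given for them here.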

How the data were processed

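The 9 poly-A RNA libraries of mouse spinal cord (3 each at day 0, 3 and 21) were analysed. The deposited table gives whole-number counts and FPKM per gene. Per the submitters' processing notes HISAT2 and StringTie were used, with the human build GRCh38 named although the samples are mouse; no version, annotation, strand setting or filter is stated there. The authors' FPKM equalled count divided by gene length and total count to within 0.00093% over 12001 genes. Gene IDs of the table lie at the same locus as in GENCODE M21 (GRCm38) for 27699 of 34267 shared IDs.

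Of 34745 genes, 23736 had a count and 16494 passed edgeR's filterByExpr. Counts were fitted with edgeR 4.0.16 in R 4.3.3 (TMM scaling, robust quasi-likelihood, all 9 libraries sharing 1 estimate of the spread; 6 residual degrees of freedom), and the fit was tested on simulated data. Adjusted p-values cover all genes tested. Alternatives used DESeq2 1.42.0, limma 3.58.1, other scalings and filters, a replicate block, and each library left out. Lists held 1238 entries for 1147 genes, of which 1 was unmatched. Members and lists were chosen with earlier results of these data known. Named genes were the 12 highest and 12 lowest changes and the 12 top held and late rises at 5 FPKM or more that were also called without day 21 replicate 2, leaving out unnamed, ribosomal protein, haemoglobin, mitochondrial and antigen receptor genes; up to 3 called members of each list at 1 FPKM or more, all PANoptosis genes and the defining markers. Of the 313 named, 23 overlap another gene over more than 20% of their exon length. Promoters are RefSeq, GRCm38.p6. No 2 libraries agreed within sampling noise. Some genes are not reported here.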

Additional observations from a re-analysis of the deposited data

How the results depend on the processing

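Of the alternatives, those with the same choice of libraries mostly moved counts and not directions. With a filter of 5 FPKM in 3 libraries, 7640 genes were tested; 1243 were higher, 1262 lower, 1116 fell back, 606 were held, 283 were late rises and 146 late falls. Limma on log2(FPKM + 0.1), (FPKM + 1) and (FPKM + 5) gave 247, 252 and 241 late falls; with 1 and 5 it gave 1694 and 1891 held genes and 958 and 1010 late rises. Limma's voom with sample weights, which gave day 21 replicate 2 a weight of 0.0583, called 4441 higher and 4853 lower, with 3727 fallen back, 1857 held, 1101 late rises, 2849 early falls that rose again and 1126 late falls. Upper quartile scaling gave 254 late falls, and the narrower definition of held (within 1.5-fold) 357 genes. Leaving out single libraries gave 1006 to 3941 higher, 1887 to 4305 lower, 334 to 989 late rises, 610 to 2522 early falls that rose again and 215 to 1003 late falls; held genes ranged from 688 to 1601. The fit with the replicate number as a replicate block gave 1388 higher and 2252 lower. Same-numbered day 3 and day 21 libraries did not deviate together (correlations 0.0168, -0.0044 and -0.00136), so no pairing by number was seen between these days. Whether same-numbered libraries shared a batch was not tested. Of 84 called genes named in the text, 71 kept their direction and call in every alternative that tested them (20 or 21 of 21) and none changed direction; the others were Aim2, Apoc4, Arntl, Cd68, Fadd, Gfap, Gpnmb, Gsdmd, Il1b, Parp1, Pycard, Ripk1 and Zbp1. The cause of these shifts was not tested. Limits: 3 libraries a day, with day 21 replicate 2 apart. Day 0 replicate 1, with a voom weight of 0.354 against 1.75 and 2.03, was less close to its group. No sham operation was named in the labels, and replicates may be technical. Depth was too low for lymphocyte genes, most of which were not tested.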

Other observations

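The 5 circadian clock genes given here were on no list and were picked after their values were seen, because they differed; other clock genes were not counted. Dbp, a clock output factor, had a mean of 5.07 FPKM at day 3 and 24.6 at day 21, with a log2 fold change of 2.20 (edgeR adjusted p = 0.000238; 1.89 without day 21 replicate 2). Nr1d2 (REV-ERB beta) went from 6.27 to 17.0 FPKM (1.37; 1.53 without it) and Ciart from 1.59 to 4.03 (1.26; 1.13), while the activators Npas2 (4.95 to 2.22 FPKM, -1.22; -0.97) and Arntl (6.09 to 4.05, -0.66; -0.52) were lower. The fall of Arntl was not called without day 3 replicate 2 (adjusted p = 0.0552). The hour at which tissue was taken is not given in the labels, so hour and day cannot be told apart.

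Cxcl9, a chemokine that interferon gamma induces, lay under the level set for named genes. Its mean was 0.013 FPKM at day 0, 0.0121 at day 3 and 0.859 at day 21.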
